A study of Homo sapiens with 65 samples.

Results

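The 10 genes described here encode proteins of the sarcomere's Z-disc and M-band or close partners of them: TTN, ACTN2, TCAP, LDB3, CSRP3, MYOZ2, MYOM1, ALPK3, TRIM63 and SMPX. They were taken by name from a table of 58735 genes, and all 10 passed the filter on low counts in both arms of the study. They were chosen by earlier fold-change calls in the same libraries: ALPK3, MYOZ2 and TRIM63 had been called changed in both arms. The fold changes of those 3 genes on loss of hyaluronan are therefore a description, with no test. In the counts analysed here ALPK3 and MYOZ2 passed the threshold in both arms. TRIM63 passed it in the genotype arm and missed it in the enzyme arm at day 4.5 unless DESeq2 or no filter was used or HAse1.5 WT_R2 was left out.

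Cardioids are self-organising heart-like spheroids grown from pluripotent stem cells, here the human induced pluripotent line WTC-11 guided towards left ventricle. The study lowered hyaluronan, a large matrix sugar polymer, in 2 ways. RNA was counted by 3′ mRNA sequencing (QuantSeq FWD) in 65 libraries of 16 groups, each library made from 8 pooled cardioids. In the genotype arm (41 libraries), knockout cardioids of HAS2, the gene of a hyaluronan synthase, came from the lines cl4, cl14, cl46 and cl51 (6 libraries each at days 1.5, 2.5 and 4.5, and 3 at day 7.5). Wild-type cardioids came from the lines WT, WT_TU, cl43_WT_UT and TNT2 (5, 6, 6 and 3 libraries on the same days). In the enzyme arm (24 libraries), wild-type cardioids of the lines TNNI1, WT and TNNT2 were left untreated or received hyaluronidase, which cuts hyaluronan, until harvest. Treatment began at day 1.5 in the groups named HAse1.5 and at day 2.5 in those named HAse2.5, with 3 libraries per group, 1 from each line. Harvest was at days 2.5, 4.5 and 7.5 for untreated and HAse1.5 cardioids and at days 4.5 and 7.5 for HAse2.5 cardioids. The labels state at least 3 biological replicates per condition without saying which libraries came from separate differentiations. On each of days 1.5, 2.5 and 4.5, 3 of the 6 knockout libraries were repeats of cl4, and the other 3 lines gave 1 each. The day 7.5 knockouts came from 2 lines only. The fits counted every library of a group as independent, repeats of a line included.

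The sarcomere is the contractile unit of striated muscle. Its ends are the Z-discs, where actin filaments of neighbouring sarcomeres are crosslinked, and its middle is the M-band, where myosin filaments are held in register. Titin runs from the one to the other and serves as a molecular spring and a scaffold. In the embryonic heart these proteins appear as cardiomyocytes differentiate and begin to contract, and variants in most of the 10 genes are known from inherited cardiomyopathy.

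Promoter sequence is described before the levels, and no motif searched for was found in every gene. RefSeq promoter windows (GRCh38.p14, 250 bases before to 50 after each start) were searched for 7 of the 10 genes; CSRP3 and TCAP were not matched. A match to the MEF2 site, the motif of the muscle MADS-box factors MEF2, lay in the windows of 3 of these 7 genes, against 2.99% of all 35116 windows. A match to the CArG box, the motif of the related factor SRF, lay in those of MYOM1 and LDB3, against 1.29% of all windows (both strands searched). No gene had a match to both motifs, and ACTN2 and TRIM63 had a match to neither. The motif began at position -167 from the start in TTN, -93 in SMPX and -31 in ALPK3 for MEF2, and at -32 in MYOM1 and -57 in LDB3 for the CArG box. These lines show each match in capitals with 10 bases on either side, 5′ to 3′ on the gene's strand, for these 5 genes.
TTN: ctttgaggtaCTAAATTTAGcactgtcaat
SMPX: gtatcaaactCTATATTTAGgaagaacaac
ALPK3: cggccaccggCTATAAATAGgggcgcgcgt
MYOM1: gccttcttggCCATAAAAGGctggttgtgt
LDB3: gggttacagtCCATTTATGGgcgcagccga
The windows are chr2:178807571-178807600 (minus strand, inside TTN, not in an annotated exon), chrX:21758190-21758219 (minus, outside SMPX), chr15:84817315-84817344 (plus, in an exon of ALPK3), chr18:3219981-3220010 (minus, in an exon of MYOM1) and chr10:86668444-86668473 (plus, in an exon of LDB3), with exons as in GENCODE 29. The hexamer GGAATG, the core bound by TEAD factors, was found in TRIM63 at -80 and in TTN at 12, and occurs in 14.0% of all windows. TATAAA was found in TRIM63 at -31 and in ALPK3 at -30, where it overlaps the MEF2 match, and occurs in 11.5%. A match is a string of letters and not a measured binding site. For SMPX, whose window reaches outside the annotated gene, the stretch before the gene (chrX:21758164-21758366, minus strand, match in capitals) is printed in full as the longer context of a gene that was called lower in both arms.
SMPX upstream: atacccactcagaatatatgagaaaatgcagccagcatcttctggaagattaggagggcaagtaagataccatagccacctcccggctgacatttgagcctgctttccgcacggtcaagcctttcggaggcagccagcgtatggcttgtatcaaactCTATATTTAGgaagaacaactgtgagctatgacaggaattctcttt

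Library totals ran from 831062 to 3574843 counts (median 1570954), and levels are given as counts per 1000000 of a library's total (CPM). HAS2 itself was measured at 150 to 482 CPM in wild-type and at 286 to 486 CPM in knockout libraries at day 4.5 and overlapped on every day. A 3′ tag outside an edited stretch does not check a knockout. In 7 libraries, the first repeat of WT and WT_TU at days 1.5, 2.5 and 4.5 and of cl4 at day 1.5, the mitochondrial ribosomal RNA MT-RNR2 was at 80 to 231 CPM against 756 to 20200 CPM in the other 58. These 7 also held the lowest TTN levels of their day. All 7 lie in the first of 3 runs of library numbers in the genotype arm, called blocks here: the first repeats of WT, WT_TU and cl4, their second repeats, and all other libraries. Genotype results that turn on the first block are given with and without it. The aligner, strand setting and handling of multiply mapped reads are not given in the sources used here. TTN's 3′ end lies under the antisense gene TTN-AS1, so reads of the pair may be mixed. TTN-AS1 itself stayed at or under 32.3 CPM in all groups. Each of 9 cardiomyocyte markers exceeded 3 counts in at least 1 library of every group at days 4.5 and 7.5. The skeletal muscle regulators MYOD1, MYOG, MYF5 and MYF6 had at most 3 counts in every library on those days.

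In wild-type cardioids all 10 genes rose from day 2.5 to day 4.5, at an adjusted p under the threshold of 0.05 (edgeR quasi-likelihood test, Benjamini-Hochberg over all 13797 genes tested), where 18.6% of tested genes were called higher. The median change of the 10 was 8.32 on the log2 scale against 0.03 for all genes (4.78 with genes absent at day 2.5 set to their bound). The genes differed in when they began. TTN and ALPK3 had risen a step earlier, CSRP3 and MYOZ2 were at 0 counts in every library through day 2.5, and LDB3, MYOZ2 and TRIM63 rose again from day 4.5 to day 7.5.

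TTN, titin, was 1 of the early genes. In wild type its lowest, median and highest levels were 0.602, 17.9 and 36.2 CPM at day 1.5, 218, 2208 and 2637 CPM at day 2.5, and 3459, 23700 and 34630 CPM at day 4.5. The day 7.5 libraries held 22720, 34190 and 36330 CPM. No library of one day reached into the next until day 4.5, and days 4.5 and 7.5 overlapped. The rise was 6.62 ± 0.81 (SE) on the log2 scale from day 1.5 to 2.5 (edgeR adjusted p = 2.62e-08) and 3.62 ± 0.63 from day 2.5 to 4.5 (adjusted p = 1.44e-05). The last step was 0.65 ± 0.69 (edgeR adjusted p = 0.753). ALPK3, an alpha-kinase family protein of the M-band, was the other early gene. It stood at 31.3, 39.3 and 48.5 CPM (lowest, median, highest) at day 1.5, 142, 163 and 203 CPM at day 2.5, and 202, 245 and 302 CPM at day 4.5. It rose by 1.90 ± 0.19 in the first step (edgeR adjusted p = 2.89e-10) and by 0.62 ± 0.17 in the second (adjusted p = 0.00408), where the ranges just overlapped, and stood at 203 to 253 CPM at day 7.5. TRIM63 was also called in the first step, in which 15% of tested genes were called higher, but it had at most 3 counts in any library of either day and no fold is given.

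The Z-disc crosslinker ACTN2, alpha-actinin 2, had at most 3 counts in any wild-type library at days 1.5 and 2.5 and stood at 91.6, 237 and 387 CPM (lowest, median, highest) at day 4.5, at least 156-fold higher than 3 counts per library. LDB3, a PDZ-LIM protein that binds actinin, went from 0.492 to 2.55 CPM at day 2.5 to 251, 709 and 989 CPM at day 4.5, a rise of 8.98 ± 0.58 (SE, log2; edgeR adjusted p = 1.31e-15). CSRP3, the muscle LIM protein, went from 0 counts to 19.8, 62.3 and 121 CPM, at least 42.6-fold. None of these 3 genes had overlapping groups across that step. MYOZ2, a calsarcin that ties actinin to calcineurin, reached 7.51, 13.2 and 23.2 CPM, at least 9.40-fold above 3 counts per library. TCAP, telethonin, which caps titin at the Z-disc, had been detectable from the start (1.40 to 6.97 CPM at day 2.5) and rose to 13.8, 24.9 and 43.5 CPM, by 2.98 ± 0.43 (edgeR adjusted p = 4.7e-07). At the M-band, MYOM1, myomesin 1, which bridges myosin filaments, rose by 9.79 ± 0.64 (adjusted p = 1.33e-15), from 0 to 1.84 CPM to 316, 631 and 799 CPM. TRIM63, the ubiquitin ligase MuRF1 that binds titin near the M-band, reached 13.2, 29.7 and 35.3 CPM, at least 17.7-fold. SMPX, a small protein of striated muscle, reached 56.7, 180 and 289 CPM, at least 121-fold, and again no group overlapped.

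From day 4.5 to 7.5, 3 of the 10 genes rose in wild type, against 1.25% of tested genes called higher. LDB3 rose by 1.65 ± 0.44 (SE, log2; edgeR adjusted p = 0.0273) to 2468, 1951 and 1685 CPM. MYOZ2 rose by 1.95 ± 0.49 (edgeR adjusted p = 0.0352) to 46.7, 54.4 and 65.3 CPM, and TRIM63 rose by 1.40 ± 0.34 (adjusted p = 0.0164) to 62.1, 72.6 and 80.8 CPM. All 3 stood above every day 4.5 library. These calls rested on few libraries: without day 7.5 WT_R2 or WT_TU_R2 0 of the 10 were called. Without day 7.5 WT_R1 or day 4.5 cl43_WT_UT 1 was called, TRIM63. The LDB3 call was also lost without the first block or with no filter (adjusted p up to 0.142 over all alternatives). The MYOZ2 call was lost without any of 7 of the 9 libraries (adjusted p up to 0.194). Untreated cardioids of the enzyme arm, a separate set of wild-type libraries, rose in 9 of the 10 genes from day 2.5 to 4.5 (12% of 12748 tested genes), all but ALPK3, whose change was 0.07 ± 0.20 (edgeR adjusted p = 0.836). There the TCAP rise of 2.64 ± 0.78 (adjusted p = 0.0184) was lost with no filter and without any of 3 libraries (day 2.5 TNNI1_R1 or WT_R2, day 4.5 TNNI1_R1; adjusted p up to 0.271). From day 4.5 to 7.5, 4 of the 10 genes rose in untreated cardioids (3.45% of tested genes): ACTN2 by 1.37 ± 0.38 (adjusted p = 0.0352), MYOM1 by 2.37 ± 0.50 (adjusted p = 0.00851), TCAP by 2.34 ± 0.62 (adjusted p = 0.0281) and TRIM63 by 1.92 ± 0.49 (adjusted p = 0.0203). That count was 0 without day 4.5 WT_R2, day 4.5 TNNT2_R3 or day 7.5 TNNT2_R3, and 1 without day 7.5 TNNI1_R1.

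**Figure D1:**
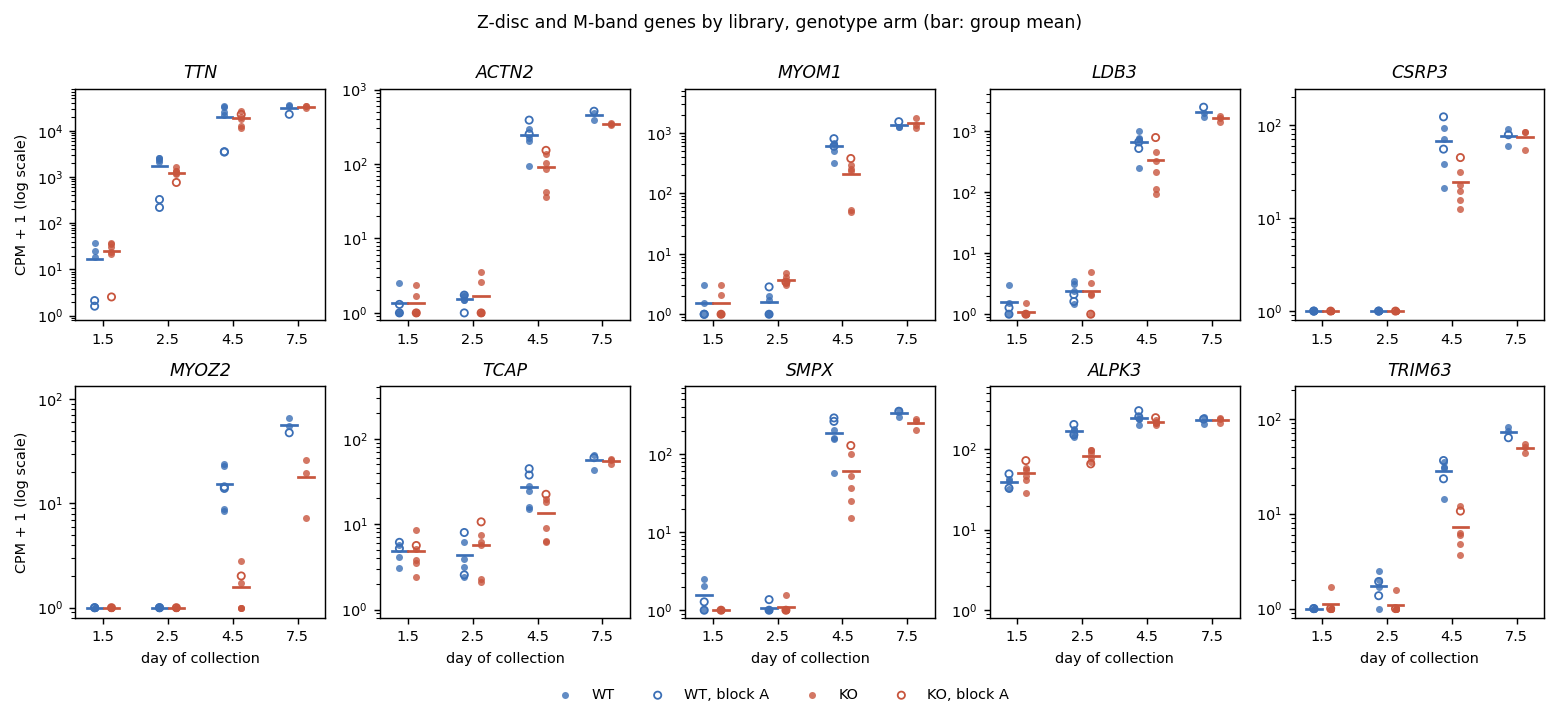
Level of each of the 10 genes (CPM + 1, log axis) in every wild-type and HAS2-knockout library at days 1.5, 2.5, 4.5 and 7.5; points are libraries and bars are group means. At day 4.5 the 6 knockout libraries of MYOZ2 sit at or under 1.83 CPM, below all 6 wild-type libraries (7.51 to 23.2 CPM), whereas by day 7.5 most genes overlap.

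In the knockouts most of the genes rose in each of the last 2 steps. From day 2.5 to 4.5, 9 of the 10 genes rose (15.6% of tested genes), all but MYOZ2, which had at most 3 counts in every knockout library on both days. From day 4.5 to 7.5, 8 of the 10 genes rose in the knockouts (3.21% of tested genes), all but TTN and ALPK3. MYOM1 rose by 2.81 ± 0.45 (SE, log2; edgeR adjusted p = 3.33e-05), TRIM63 by 2.99 ± 0.37 (adjusted p = 6.28e-07). LDB3 rose by 2.31 ± 0.44 (adjusted p = 0.00037), TCAP by 2.13 ± 0.44 (adjusted p = 0.0012) and SMPX by 2.12 ± 0.44 (adjusted p = 0.00143). ACTN2 rose by 1.95 ± 0.41 (adjusted p = 0.00132), CSRP3 by 1.68 ± 0.44 (adjusted p = 0.0251, lost without any of 6 of the 9 libraries, up to 0.112). MYOZ2 rose at least 9.26-fold. Whether the knockout effect itself differed between days 4.5 and 7.5 was tested as a difference of differences. By edgeR 0 of the 10 genes passed (0.159% of tested genes called in either direction), and 4 of the 10 had an unadjusted p under 0.05. With the library-number block as a term 3 passed, MYOZ2, SMPX and TRIM63, though the labels give no pairing in this arm. MYOZ2 and TRIM63 helped to choose the list by their knockout values, so that count is a description. Their rises from day 4.5 in the knockouts also start from libraries used in that choice.

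Against wild type at day 4.5, the knockouts held less RNA of most of these genes. In the set, 6 of 10 genes were called lower and 0 higher, where 2.6% of tested genes were called lower. The median change was -1.51 on the log2 scale against -0.03 for all genes. Because 2 of the 6, MYOZ2 and TRIM63, helped to choose the list, that count is a description. A fit to these 2 groups alone, or to the block of all other libraries alone, called 2, MYOZ2 and TRIM63. In bulk samples, fewer cells of a type and less RNA per cell cannot be told apart. Groups did not overlap for 2 genes, MYOZ2 and TRIM63 (1.19% of tested genes). Summed cardiomyocyte markers moved the same way, at 5852 to 18320 CPM in the knockouts against 15150 to 34300 CPM in wild type. Of these 9 markers 3 were called lower and none was at or under 3 counts. Summed smooth muscle markers were at 784.7 to 1687 CPM against 1402 to 2347 CPM, with 3 of 5 called lower and MYH11 at or under 3 counts in every knockout library. The part of either list in the result was not tested.

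A Z-disc gene and an M-band gene separated completely. MYOZ2 had 0 to 3 counts in each knockout library (0, 0.356 and 1.83 CPM as lowest, median and highest) against 7.51, 13.2 and 23.2 CPM in wild type. That is at least 8.02-fold lower. TRIM63 was at 2.69, 5.10 and 11.0 CPM in the knockouts and 13.2, 29.7 and 35.3 CPM in wild type, a log2 change of -2.19 ± 0.33 (SE). The highest TRIM63 knockouts were the first and second repeat of cl4, at 9.65 and 11.0 CPM, and still lay under the lowest wild-type library, cl43_WT_UT. ALPK3, also used to choose the list, was at 202 to 247 CPM in the knockouts and 202 to 302 CPM in wild type. The groups overlapped fully, with a change of -0.24 ± 0.17.

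Among the other 7 genes, 4 fell. SMPX stood at 14.0, 43.7 and 128 CPM (lowest, median, highest) in the knockouts and 56.7, 180 and 289 CPM in wild type. It fell by 1.73 ± 0.38 (SE, log2; edgeR adjusted p = 0.00642). ACTN2 stood at 34.8, 93.0 and 151 CPM against 91.6, 237 and 387 CPM. It fell by 1.47 ± 0.35 (adjusted p = 0.012). In both genes the overlap came from the 2 or 3 highest knockouts, all cl4, and the lowest wild-type library, cl43_WT_UT. MYOM1 stood at 48.1, 239 and 375 CPM against 316, 631 and 799 CPM. It fell by 1.56 ± 0.39 (edgeR adjusted p = 0.0153), a call lost with no filter or without cl51_R1 (adjusted p up to 0.27 over all alternatives). CSRP3 stood at 11.6, 20.0 and 43.7 CPM against 19.8, 62.3 and 121 CPM. It fell by 1.55 ± 0.38 (edgeR adjusted p = 0.0267), a call lost without any of 7 of the 12 libraries (adjusted p up to 0.0904). The 1 library of cl46 and the 1 of cl51 were the lowest knockouts in ACTN2, MYOM1, LDB3, CSRP3, TCAP, SMPX and TTN.

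LDB3, TCAP and TTN did not pass with all libraries. LDB3 was at 93.8, 270 and 785 CPM in the knockouts and 251, 709 and 989 CPM in wild type (-1.03 ± 0.37 SE on the log2 scale, edgeR adjusted p = 0.115). TCAP was at 5.21, 12.6 and 21.3 CPM against 13.8, 24.9 and 43.5 CPM (-1.15 ± 0.38, adjusted p = 0.0826). Both passed without cl4_R1 or without cl43_WT_UT. TTN was at 11280, 18870 and 26980 CPM against 3459, 23700 and 34630 CPM in wild type, a change of -0.18 ± 0.57 (edgeR adjusted p = 0.892). Its 2 lowest wild-type libraries, WT_R1 at 3459 CPM and WT_TU_R1 at 3527 CPM, are of the 7 with little MT-RNR2. Without the first block, a choice made after seeing the data, TTN was 17750 ± 6249 CPM in the knockouts (SD, n = 5) and 28760 ± 6077 CPM in wild type (SD, n = 4) and fell by 0.76 (edgeR adjusted p = 0.0349). LDB3 then also passed, falling by 1.58 (adjusted p = 0.0127), and 8 of the 10 genes were called lower. With all libraries but WT_R2 or WT_TU_R2, the TTN estimate had the opposite sign, 0.02 or 0.05. Its direction at day 4.5 turned on which libraries were compared.

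On the other days fewer of the 10 genes were called in the knockouts. At day 1.5, 0 of the 10 genes were called (edgeR; 0% of tested genes were called lower, and 0 of the 10 had an unadjusted p under 0.05). At day 2.5, ALPK3 was the 1 gene called lower (0.5% of tested genes), a description because it helped to choose the list. It stood at 64.98, 83.1 and 98.4 CPM as lowest, median and highest in the knockouts and 142, 163 and 203 CPM in wild type, with no overlap and a log2 change of -1.05 ± 0.18 (SE). On that day MYOM1 ran the other way at a very low level, 2.09 to 3.89 CPM in the knockouts and 0 to 1.84 CPM in wild type, 1.99 ± 0.82 (edgeR adjusted p = 0.353). Without the first block TTN was also called lower (1155 to 1638 CPM against 2082 to 2637 CPM, a fall by 0.86, adjusted p = 0.0316). At day 7.5, 0 of the 10 passed (edgeR; 0.29% of tested genes were called lower; 1 of the 10 had an unadjusted p under 0.05, and only a fit to these groups alone called 1, MYOZ2). Groups were apart, with the knockouts lower, for ACTN2, MYOZ2, SMPX and TRIM63 (4 of 10, against 7.72% of tested genes). MYOZ2 and TRIM63 helped to choose the list, so that count is a description. With the library-number block as a term, the estimates for ACTN2 (0.15) and SMPX (0.39) turned to higher in the knockouts, neither called. MYOZ2 was at 25.4, 6.33 and 18.6 CPM in the knockouts against 46.7, 54.4 and 65.3 CPM in wild type, a change of -1.76 ± 0.61. TRIM63 was at 49.5, 53.5 and 42.5 CPM against 62.1, 72.6 and 80.8 CPM, a change of -0.60 ± 0.41. On that day wild type came from the first and second blocks and the knockouts from the second block and the remaining libraries, so block and genotype cannot be fully told apart.

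Hyaluronidase from day 1.5 was followed by lower levels of most of these genes at day 4.5. In the set, 7 of 10 genes were called lower and 0 higher (2.41% of tested genes were called lower), and groups did not overlap for 7 (8.87% of tested genes). The median change was -2.73 on the log2 scale against 0.02 for all genes (-2.37 with MYOZ2 at its bound). The count called and the count without overlap both include MYOZ2, and the second also TRIM63. These genes helped to choose the list, so both counts are a description. A fit to these 2 groups alone called 2, ACTN2 and SMPX. Summed cardiomyocyte markers were at 1012 to 5853 CPM against 12110 to 24920 CPM in untreated cardioids, with 5 of 9 called lower. Smooth muscle markers were at 228 to 767 CPM against 1300 to 2146 CPM. The part of either list in the result was not tested.

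**Figure D2:**
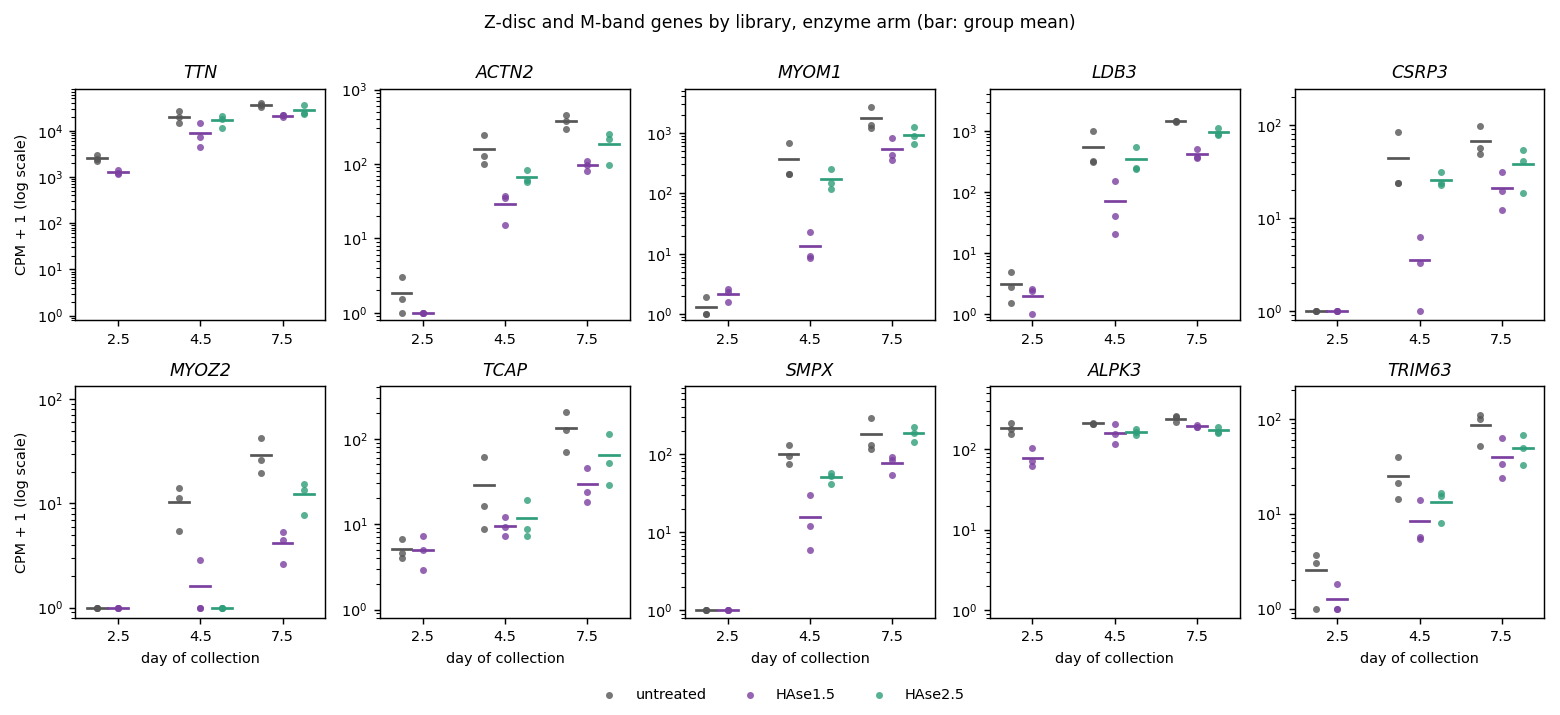
Level of each of the 10 genes (CPM + 1, log axis) in every untreated, HAse1.5 and HAse2.5 library at days 2.5, 4.5 and 7.5; points are libraries, 1 per line, and bars are group means. At day 4.5 the HAse1.5 libraries of MYOM1 lie at 7.45 to 21.6 CPM, below the HAse2.5 libraries (118 to 250 CPM) and the untreated ones (205 to 678 CPM).

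MYOM1, the M-band crosslinker, fell furthest of the genes with a fold. In the lines TNNI1, WT and TNNT2 it was at 678, 205 and 209 CPM in untreated cardioids and at 7.45, 21.6 and 8.15 CPM with the enzyme from day 1.5. It fell by 5.03 ± 0.62 (SE, log2; edgeR adjusted p = 0.000141). The treated library of each line lay far under every untreated one. At the Z-disc, CSRP3 was at 83.3, 23.1 and 23.0 CPM untreated and 0, 5.19 and 2.33 CPM treated and fell by 4.29 ± 0.76 (edgeR adjusted p = 0.00316). LDB3 was at 992, 320 and 306 CPM and 19.9, 151 and 40.2 CPM and fell by 3.06 ± 0.60 (edgeR adjusted p = 0.00613). ACTN2 was at 245, 99.5 and 125 CPM and 14.3, 33.7 and 36.1 CPM and fell by 2.58 ± 0.42 (adjusted p = 0.00131). SMPX was at 129, 94.1 and 73.7 CPM untreated and 4.97, 28.5 and 11.1 CPM treated and fell by 2.88 ± 0.47 (edgeR adjusted p = 0.00169). None of these 5 genes overlapped between treated and untreated libraries. The sizes turned on single libraries. Without untreated TNNI1_R1 the change was -4.18 for MYOM1, -2.24 for LDB3 and -3.34 for CSRP3, and without HAse1.5 WT_R2 it was -5.63 for MYOM1, -4.27 for LDB3, -5.18 for CSRP3 and -3.70 for SMPX. In LDB3, SMPX, CSRP3, MYOM1 and TTN the highest treated library was that of the line WT.

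TTN, with the enzyme from day 1.5, was at 4406, 14640 and 7171 CPM in TNNI1, WT and TNNT2 against 26570, 19480 and 14490 CPM untreated, and fell by 1.29 ± 0.32 (SE, log2; edgeR adjusted p = 0.0229). The groups just overlapped, at 14640 against 14490 CPM. The call was lost with no filter or without TNNI1_R1 of either group or HAse1.5 TNNT2_R3 (adjusted p up to 0.315 over all alternatives). TCAP was at 6.21, 11.2 and 8.15 CPM against 60.7, 15.1 and 7.65 CPM (-1.83 ± 0.71, adjusted p = 0.209), and was lower in 2 of 3 lines; without untreated TNNI1_R1 the change was -0.47. MYOZ2 had 3, 0 and 0 counts in the treated libraries and 10.2, 4.44 and 13.2 CPM in the untreated ones, at least 4.50-fold lower. TRIM63 was at 4.34, 13.0 and 4.66 CPM treated and 38.9, 13.3 and 20.2 CPM untreated (-1.88 ± 0.57), a narrow separation that came from the line WT. ALPK3 was at 115, 207 and 156 CPM against 206, 208 and 215 CPM (-0.48 ± 0.21), overlapping.

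At day 2.5, 1 day into the early treatment, ALPK3 was again the 1 gene of the set called lower (0.894% of tested genes). This too is a description, since ALPK3 helped to choose the list. It was at 60.4, 102 and 71.2 CPM in TNNI1, WT and TNNT2 against 154, 179 and 214 CPM untreated (-1.26 ± 0.21 SE, log2) with no overlap. TTN was lower in all 3 lines on that day, at 1412, 1159 and 1212 CPM against 2486, 2252 and 2965 CPM, -1.07 ± 0.32 (edgeR adjusted p = 0.132; a fit to these groups alone called it). At day 7.5, 4 of the 10 genes were called lower (1.92% of tested genes) and 9 did not overlap (6.9% of tested genes), all but TRIM63. Both counts include MYOZ2 and the second also ALPK3, which helped to choose the list, so they are a description. ACTN2 was at 110, 78.4 and 95.5 CPM against 294, 382 and 450 CPM and fell by 2.11 ± 0.39 (adjusted p = 0.00456). MYOM1 was at 434, 360 and 828.8 CPM against 1358, 1190 and 2664 CPM and fell by 1.80 ± 0.49 (edgeR adjusted p = 0.0473). TCAP was at 17.1, 23.0 and 44.6 CPM against 124, 68.3 and 203 CPM and fell by 2.33 ± 0.62 (adjusted p = 0.0406). Both calls were lost without any of 4 libraries (untreated TNNI1_R1 or TNNT2_R3, HAse1.5 TNNI1_R1 or WT_R2), which left 1 or 2 genes called. MYOZ2 was at 1.63, 4.31 and 3.49 CPM against 18.7, 41.5 and 25.2 CPM (-3.24 ± 0.67), and its call was lost without HAse1.5 TNNI1_R1.

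**Figure D3:**
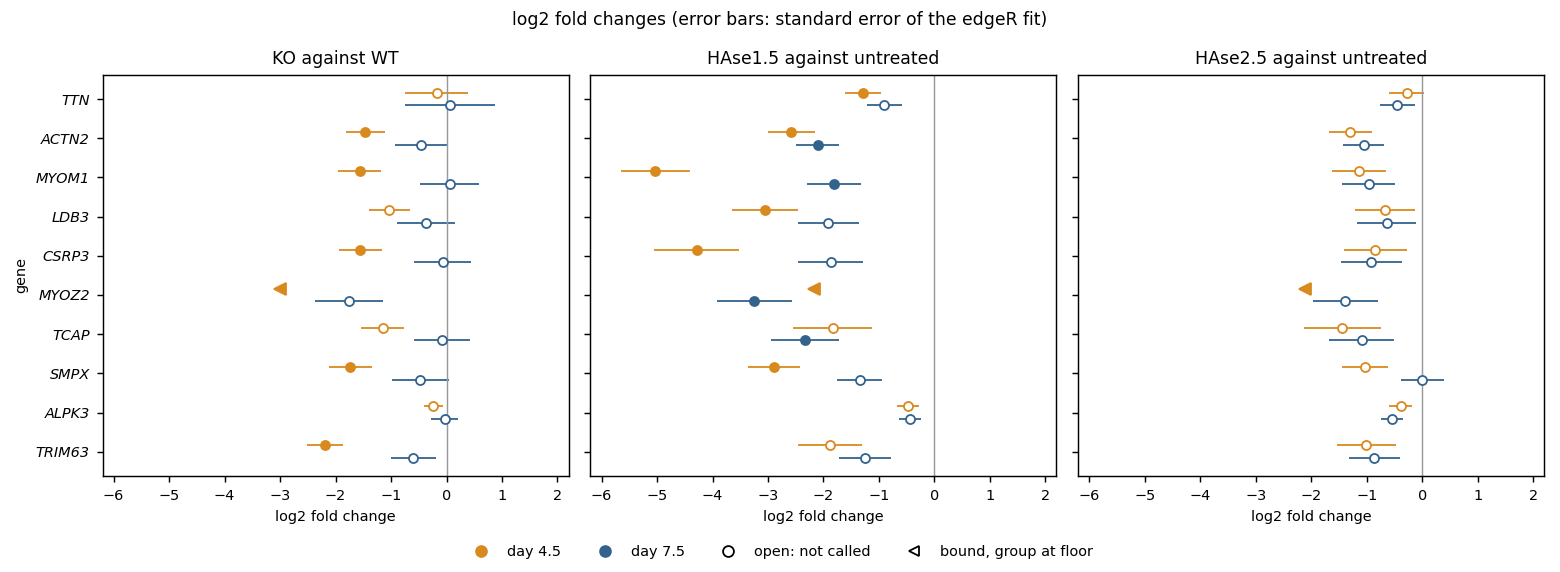
log2 fold change with its standard error (horizontal bars) for the 10 genes at day 4.5 (orange) and day 7.5 (blue) in KO against WT, HAse1.5 against untreated and HAse2.5 against untreated; filled points passed an adjusted p of 0.05 (edgeR), open points did not, and triangles are bounds for a group with at most 3 counts per library. The lowest value is MYOM1 in HAse1.5 at day 4.5 (-5.03), which in HAse2.5 on that day is at -1.14.

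The remaining genes were lower at day 7.5 without passing. LDB3 stood at 367, 501 and 378 CPM against 1395, 1468 and 1455 CPM (-1.91 ± 0.55 SE, log2; edgeR adjusted p = 0.0677). CSRP3 was at 30.2, 18.7 and 11.2 CPM against 47.3, 55.5 and 97.2 CPM (-1.87 ± 0.58, edgeR adjusted p = 0.0947). SMPX was at 83.1, 90.6 and 53.0 CPM against 129, 288 and 117 CPM (-1.35 ± 0.41, adjusted p = 0.0807), and TTN at 21650, 21700 and 20330 CPM against 40390, 33430 and 36000 CPM (-0.90 ± 0.32, adjusted p = 0.133). None of these 4 genes overlapped. TRIM63 changed by -1.24 ± 0.47 and ALPK3 by -0.44 ± 0.20. Summed cardiomyocyte markers were at 10500 to 16040 CPM against 33140 to 39630 CPM with 1 of 9 called lower. Smooth muscle markers were at 1022 to 1425 CPM against 1473 to 2551 CPM. Of these 5 markers 4 passed the filter and 2 were called lower, and the part of either list was not tested. The day 7.5 effect did not differ from the day 4.5 effect for any of the 10 at the threshold (edgeR, 0 of 10; 0.0157% of tested genes; 3 with an unadjusted p under 0.05), with MYOM1 at 3.23 ± 0.76 (adjusted p = 0.142).

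Within the early treated cardioids themselves, 7 of the 10 genes rose from day 2.5 to 4.5 (11.7% of tested genes), all but CSRP3, MYOZ2 and TCAP. From day 4.5 to 7.5 also 7 rose (4.36% of tested genes), all but MYOZ2, TCAP and ALPK3. MYOM1 rose by 5.60 ± 0.63 in the later step (SE, log2; edgeR adjusted p = 3.38e-05), SMPX by 2.49 ± 0.47 (adjusted p = 0.0028). TRIM63 rose by 2.56 ± 0.56 (adjusted p = 0.00511) and CSRP3 by 3.15 ± 0.80 (adjusted p = 0.0183, lost without any of 3 libraries, up to 0.0966). Without day 4.5 TNNI1_R1 that later count was 4.

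Enzyme given from day 2.5 was compared with the same untreated libraries, so its values are set beside those of the early treatment rather than correlated with them. At day 4.5, 1 of the 10 genes was called lower, MYOZ2 (0.149% of tested genes), with 0 counts in all 3 lines, at least 4.34-fold lower than untreated. MYOZ2, ALPK3 and TRIM63 helped to choose the list, so counts against untreated that include them are a description. Groups were apart for 4 genes, ACTN2, MYOZ2, SMPX and ALPK3 (7.43% of tested genes). The call was lost without any 1 of 5 of the 6 libraries, all but untreated WT_R2. Within the lines, 9 of the 10 genes were lower than untreated in all 3, against 16.8% of tested genes (8 of the 10 at day 7.5, against 16.3%). ACTN2 was at 81.2, 55.4 and 60.3 CPM in TNNI1, WT and TNNT2 (-1.30 ± 0.39 SE, log2; edgeR adjusted p = 0.25), and SMPX at 51.0, 57.0 and 40.4 CPM (-1.04 ± 0.42, adjusted p = 0.548). MYOM1 was at 250, 118 and 144 CPM (-1.14 ± 0.49, adjusted p = 0.622) and TTN at 21200, 18230 and 11630 CPM (-0.28 ± 0.31, adjusted p = 0.995). Without untreated TNNI1_R1 the MYOM1 change was -0.29, and those of LDB3 and CSRP3 were 0.14 and 0.10. Summed cardiomyocyte markers were at 8217 to 13800 CPM against 12110 to 24920 CPM, with 0 of 9 called (edgeR). At day 7.5, 0 of the 10 passed (edgeR; 0.314% of tested genes; 3 of the 10 had an unadjusted p under 0.05, and with no filter 1, ACTN2, passed). Groups were apart for 4, ACTN2, LDB3, MYOZ2 and ALPK3 (7.37% of tested genes). MYOZ2 was at 14.5, 6.71 and 12.4 CPM (-1.39 ± 0.59), and SMPX overlapped the untreated range at 187, 142 and 223 CPM. From day 4.5 to 7.5 in these cardioids 6 of the 10 genes rose (1.33% of tested genes): ACTN2, MYOM1, MYOZ2, TCAP, SMPX and TRIM63. That count was 1 or 2 without any of 5 libraries (day 4.5 TNNI1_R1, WT_R2 or TNNT2_R3, day 7.5 TNNI1_R1 or TNNT2_R3), and MYOZ2 remained called in each.

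The starting day was compared directly at day 4.5, a contrast that did not choose the list. MYOM1 was the 1 gene of the set called lower with the early start (0.275% of tested genes). It stood at 7.45, 21.6 and 8.15 CPM against 250, 118 and 144 CPM, without overlap, and fell by 3.90 ± 0.61 (SE, log2; edgeR adjusted p = 0.0111). It was lost without TNNI1_R1 of either group or HAse1.5 TNNT2_R3 (adjusted p up to 0.0983), and without HAse1.5 WT_R2 the count was 5. With the line as a block, which the labels give since repeat numbers mark the lines, 2 genes passed, CSRP3 being added. CSRP3 (-3.44 ± 0.78, adjusted p = 0.0635), LDB3 (-2.38 ± 0.59, adjusted p = 0.0854) and SMPX (-1.84 ± 0.47, adjusted p = 0.11) did not overlap either. Nor did ACTN2 (-1.28 ± 0.42, edgeR adjusted p = 0.234), so groups were apart for 5 of the 10 genes. The share of all tested genes apart in this contrast was not counted, so the non-overlap is a description. ALPK3 (-0.09 ± 0.21, adjusted p = 0.982), TCAP (-0.39 ± 0.77, adjusted p = 0.98) and TRIM63 (-0.87 ± 0.60, adjusted p = 0.755) overlapped. At day 7.5, 0 of the 10 passed (edgeR; 0% of tested genes; 4 of the 10 had an unadjusted p under 0.05, and with no filter 1, SMPX, passed).

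The knockout and early enzyme effects were set against each other in a fit of all 65 libraries. At day 4.5 MYOM1 was the 1 gene of the set whose effects differed, by 3.47 ± 0.71 on the log2 scale (SE; edgeR adjusted p = 0.00901; 0.271% of 14047 tested genes), the enzyme effect being the lower. The difference missed the threshold without untreated TNNI1_R1, HAse1.5 TNNI1_R1 or HAse1.5 TNNT2_R3 (adjusted p up to 0.152 over all alternatives). At day 7.5, 0 of the 10 passed (edgeR; 0.0925% of tested genes; 5 of the 10 had an unadjusted p under 0.05). With the line and the library-number block as terms 2 passed, ACTN2 and TCAP.

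Because the cardiomyocyte markers moved too, each gene was also read per 1000 CPM of the 9 summed markers, as a description of day 4.5 with no test. With the early enzyme MYOM1 was at 3.55 to 7.36 on this scale against 15.5 to 27.2 in untreated cardioids, and CSRP3 at 0 to 1.02 against 1.75 to 3.34, both without overlap. SMPX lay lower by a narrow margin (4.82 to 4.91 against 5.18 to 7.12). LDB3 (17.5 to 25.8 against 24.2 to 39.8) and ACTN2 (5.76 to 15.7 against 7.52 to 10.3) overlapped the untreated range. ALPK3 (35.4 to 113 against 8.27 to 17.7), TTN (2501 to 4353 against 1066 to 1473) and TRIM63 (2.03 to 4.29 against 1.01 to 1.67) lay above it. TCAP (1.92 to 6.13 against 0.632 to 2.44) and MYOZ2 (0 to 1.84 against 0.336 to 1.09) overlapped it, MYOZ2 with at most 3 counts per treated library. In the knockouts MYOZ2 was at 0 to 0.10 against 0.313 to 0.832 in wild type, the only gene with no overlap. TRIM63 was at 0.213 to 0.891 against 0.705 to 1.42, and ACTN2 at 5.94 to 8.26 against 6.05 to 12.2. MYOM1, CSRP3 and SMPX also had lower means. ALPK3 (11.5 to 35.2 against 6.90 to 16.5) and TTN (1235 to 1939 against 101 to 1441) had higher means. The means of LDB3 (23.7 against 24.5) and TCAP (0.964 against 0.963) were alike. With the late enzyme MYOZ2 (0 in each library against 0.336 to 1.09) and ACTN2 (5.24 to 7.33 against 7.52 to 10.3) lay below the untreated range, and the other 8 genes overlapped it.

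**Figure D4:**
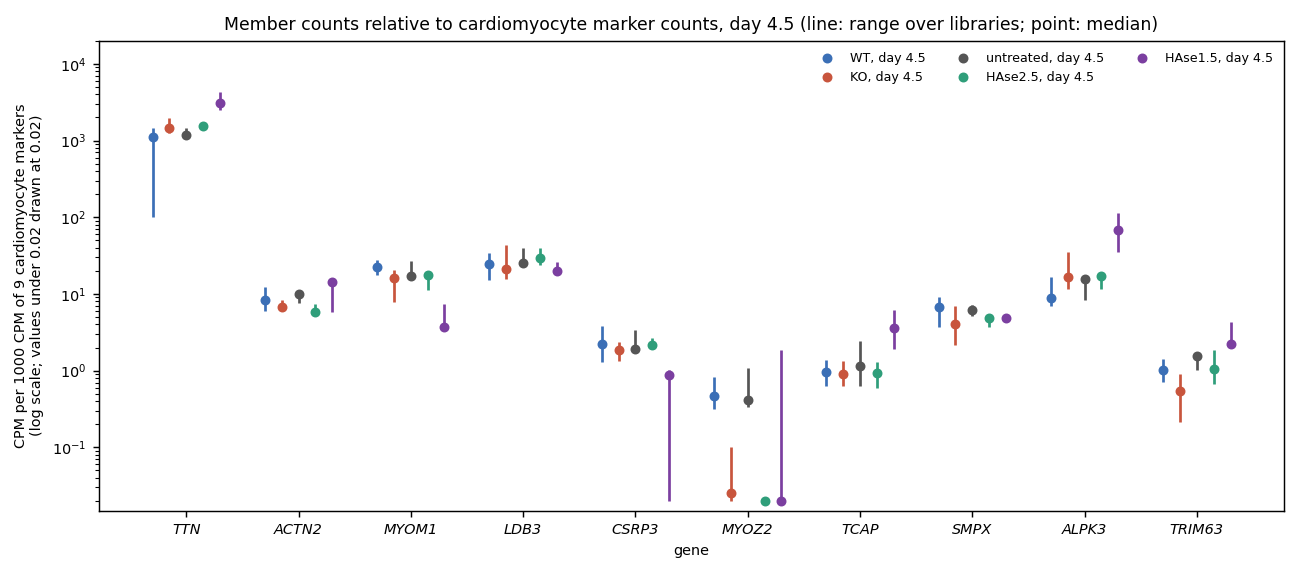
Level of each of the 10 genes per 1000 CPM of 9 summed cardiomyocyte markers (log axis) at day 4.5, by group. Lines run from the lowest to the highest library and points are group medians. Values below a small limit are drawn at that limit. HAse1.5 libraries lie below untreated ones for MYOM1 (3.55 to 7.36 against 15.5 to 27.2) and above them for ALPK3 (35.4 to 113 against 8.27 to 17.7).

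Other genes of the Z-disc, the M-band, thin-filament length control and sarcomere turnover (38 genes in 4 lists, 33 tested in the genotype arm and 32 in the enzyme arm) gave 9 called lower and 0 higher in the knockouts at day 4.5, where 2.6% of all tested genes were called lower. These were 2 of 15 Z-disc partners, 3 of 8 M-band and titin-associated genes, 1 of 3 thin-filament genes and 3 of 7 turnover genes. The lowest was ANKRD1, a titin-binding ankyrin repeat protein, at 15.9 ± 8.84 CPM against 563 ± 264 CPM in wild type (SD, n = 6 each), and fell by 5.19 ± 0.52 (SE, log2; edgeR adjusted p = 1.03e-08). The smallest called change was that of SPEG, a kinase related to obscurin, which fell by 1.01 ± 0.29 (adjusted p = 0.0402). At day 7.5, 0 were called (0.29% of all tested genes). With the early enzyme at day 4.5, 10 were called lower and 0 higher (6 of 14, 2 of 8, 1 of 3 and 1 of 7), where 2.41% of all tested genes were called lower. They ran from ANKRD1 (a fall by 4.83 ± 1.13, edgeR adjusted p = 0.0225) to NEBL, nebulette, a thin-filament protein of the cardiac Z-disc (a fall by 0.92 ± 0.23, adjusted p = 0.0229). At day 7.5, 3 were called lower (1.92% of all tested genes). ANKRD1 fell by 5.92 ± 1.16, LMOD2, a leiomodin of the thin filament, fell by 2.81 ± 0.56, and TRIM55, a relative of TRIM63, fell by 1.597 ± 0.43 (edgeR adjusted p = 0.00795, 0.00545 and 0.0437).

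Across the 16 groups the order of mean levels largely followed the day of harvest, with HAse1.5 at day 4.5 the lowest of the day 4.5 and 7.5 groups for TTN, ACTN2, MYOM1, LDB3, CSRP3, TCAP, SMPX and ALPK3. The exceptions were MYOZ2 (HAse2.5 at day 4.5, all libraries at 0) and TRIM63 (knockouts at day 4.5). Most neighbours in that order overlapped: 1 to 3 of 15 neighbouring pairs of groups were apart in any gene. In TTN, for example, HAse1.5 cardioids at day 4.5 (mean 8738 CPM) and untreated cardioids at day 2.5 (mean 2567 CPM) were neighbours that did not overlap. MYOZ2 had at most 3 counts per library in 9 of 16 groups, CSRP3 and SMPX in 6, TRIM63 in 5, ACTN2 in 4, MYOM1 in 3 and LDB3 in 2, and TTN, TCAP and ALPK3 in none.

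The gene most like each of the 10, by Pearson's r of group-mean log2 CPM over the 16 groups among 12528 genes tested in both arms, was a member of the set for ACTN2 and LDB3 (each other, r = 0.9959) and for SMPX (ACTN2, r = 0.9947). For the rest it was KIF26B for TTN (r = 0.9937), FITM1 for MYOM1 (0.9924), ITGB1BP2 for CSRP3 (0.9897), UNC5B-AS1 for MYOZ2 (0.9628), ARHGAP26 for TCAP (0.9778), TBX5 for ALPK3 (0.9702) and NCALD for TRIM63 (0.9927). Among the 45 pairs within the set r ran from 0.62 to 0.996 with a median of 0.909, ALPK3 having the lowest median over its pairs (0.758) and LDB3 the highest (0.973). The groups share the strong rise with time, libraries and lines, so these values describe a shared course and carry no test.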

How the data were processed

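RNA of pooled cardioids was counted by QuantSeq 3′ FWD sequencing. The values are raw read counts per gene that the authors deposited in 1 table, made with featureCounts (Subread 1.6.2) on hg38/GRCh38 per the submitters' processing notes; the aligner is not given in the sources used here. Of 69 columns 65 matched a listed sample and 4 were not used. The 58735 Ensembl IDs were all found in GENCODE 29.

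Counts were fitted per arm with edgeR 4.0.16 (R 4.3.3; quasi-likelihood, robust, TMM, filterByExpr with a minimum count of 10, 1 mean per group), with Benjamini-Hochberg adjustment over all tested genes and a threshold of 0.05, and checked on simulated counts. CPM is counts per 1000000 of the library total. A group with at most 3 counts in every library is treated as a floor: a fold is then given as a bound against 3 counts per library. Limits of this kind cover counting error only.

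The genes and lists were chosen with earlier results of these data known. All 10 genes are named; from the 4 other lists the called genes with the highest and the lowest fold change are named, and for each of the 10 the gene with the highest Pearson r (log2 CPM, prior count 2). LMOD2, between those extremes, was named after its values were seen. The promoter window of 1 gene is not reported here. P-values measure the spread between these libraries, which may be technical.

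In the enzyme arm repeat numbers mark the line, which pairs the libraries (15 of 21 pairs of deviations correlated above 0.1). In the genotype arm the labels give no such pairing. Alternatives were DESeq2 1.42.0, RLE size factors, no filter, only the groups compared, a replicate block, the block of all other libraries alone, TMM-scaled CPM, each library left out and, added after seeing the data, the first block left out.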

Additional observations from a re-analysis of the deposited data

Results flagged for a closer look

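MYOM1 is the 1 result of the set in which the 2 ways of lowering hyaluronan differed by a test of the difference itself. The knockout effect minus the early enzyme effect at day 4.5 was 3.47 ± 0.71 on the log2 scale (SE; edgeR adjusted p = 0.00901): MYOM1 fell by 1.56 in the knockouts and by 5.03 with the enzyme, and all 3 enzyme libraries lay under the untreated ones. The adjusted p passed the threshold by DESeq2, RLE, no filter and the replicate block, and missed it without untreated TNNI1_R1, HAse1.5 TNNI1_R1 or HAse1.5 TNNT2_R3 and in a fit to the groups compared alone. Of 26 gene and group pairs with 5 or 6 libraries and enough counts, 0 had a single library far outside the others. Groups of 3 libraries were not examined. The check takes 1 library at a time, so 2 low libraries lying together would not be flagged.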

How the results depend on the processing

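Of 107 fold changes recomputed one by one, RLE size factors changed no call and DESeq2 added 3 and removed 0; TMM scaling kept 158 of 160 group means within 1 SD. At day 4.5 the knockout count of 6 became 2 in a fit to these groups alone and 2 with the block of all other libraries alone. At day 2.5 it became 2 without the first block. At day 7.5 it became 1 in a fit to these groups alone. For the early enzyme, a fit to the groups alone gave 2 at day 2.5 and 2 at day 4.5. For the late enzyme at day 4.5, no filter gave 3 and the groups alone 2; at day 7.5 no filter gave 1. Early against late at day 4.5 gave 4 by DESeq2 (CSRP3, LDB3 and SMPX added), 4 with no filter and 2 with the groups alone; at day 7.5 no filter gave 1. The early enzyme effect at day 7.5 minus that at day 4.5 gave 2 with no filter. The knockout minus the early enzyme effect gave 3 with no filter and 0 with the groups alone at day 4.5, and 4 with no filter and 2 with the groups alone at day 7.5. For these changes the cause was not tested, except that a fit to the groups alone has fewer libraries.

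With the replicate block as a term, the knockout effect at day 7.5 minus that at day 4.5 gave 3 (MYOZ2, SMPX and TRIM63), early against late enzyme at day 4.5 gave 2, and the knockout minus the early enzyme effect at day 7.5 gave 2 (ACTN2 and TCAP); it left all other counts within 1.5 times. In the genotype arm 9 of 13 pairs of deviations with a shared block correlated above 0.1, and 15 of 20 libraries correlated best with a library of their own block and number. The replicate block turned the sign of 9 fold changes, none of them called: TTN in knockouts at day 4.5 (0.27), then for day 7.5 TTN (-0.55), ACTN2 (0.15), LDB3 (0.24), CSRP3 (0.52), TCAP (0.41), SMPX (0.39) and ALPK3 (0.062), and SMPX with the late enzyme at day 7.5 (0.12). Without the first block TTN in knockouts at day 7.5 was -0.11.

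Leaving out 1 library, counts ran from 4 to 8 for knockouts at day 4.5, 0 to 3 for the last wild-type step, 5 to 8 and 1 to 4 for the early enzyme at days 4.5 and 7.5, 0 to 1 for the late enzyme at day 4.5, 0 to 5 for early against late at day 4.5, 0 to 6 for the last untreated step, 4 to 7 and 1 to 6 for the last early and late enzyme steps, and 0 to 2 for the knockout minus the early enzyme effect at day 4.5. Fold changes that turned sign ran from -0.40 to 0.049 for TTN in knockouts at day 4.5, and at day 7.5 from -0.11 to 0.18 for TTN, -0.12 to 0.17 for MYOM1, -0.23 to 0.11 for CSRP3, -0.24 to 0.027 for TCAP and -0.13 to 0.040 for ALPK3. With the late enzyme they ran from -1.19 to 0.14 for LDB3 and -1.16 to 0.10 for CSRP3 at day 4.5, and -0.22 to 0.51 for SMPX at day 7.5. Depth limits MYOZ2, CSRP3 and TRIM63, whose low groups hold a few counts per library.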
